A study of Mus musculus with 1087 samples.

Results

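The cells described here are 18.2% of the 1087 single cells in this study of mouse embryos: those whose labels give class HC1 and cluster 8 in the authors' clustering without the CD27+ sorted cells. They are called HC1 cluster 8 throughout. All embryos carried 1 Gata2 allele linked to the Venus fluorescent protein (Gata2V/+, on C57BL/6HsdJOla), so Venus follows Gata2, and no embryo without the reporter was analysed here. Live cells labelled KitHi were sorted from the aorta-gonad-mesonephros (AGM) region after staining for CD31, cKit and CD27. In the gate G2VInt (intermediate Venus) HC1 cluster 8 held 36 cells of E10, 31 of E11 and 39 of E11.5. In the gate G2VLo (low Venus), sorted at E11.5, it held 92. The cells set against them came from the same days and gates. Class EC, 30.8% of all cells, had 14 cells of E10 and 15 of E11, with 36.4% of its cells in E11.5 G2VInt and 54.9% in E11.5 G2VLo. In the same order class HC2 of cluster 10 had 2, 20, 23 and 7 cells, and class HC1 of cluster 7 had 27, 46, 63 and 71 cells. The labels do not spell out EC and HC. They name no embryo, litter or sort, so how many embryos were pooled is not given in the sources used here. Each day and gate was therefore 1 sample, cells were not replicates, no test was run, and no p-value is given.

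Blood stem and progenitor cells of the mid-gestation embryo arise from endothelial cells of the aorta. During this transition a cell loses genes of endothelial junctions and vessel identity and gains Runx1-dependent blood genes, and the new cells gather in clusters attached to the vessel wall. In adult bone marrow the receptor tyrosine kinase Flt3 marks multipotent and lymphoid-primed progenitors, and CD27, a receptor of the TNF receptor family, is present on blood progenitors and lymphocytes.

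A level is the number of reads of a gene summed over the cells of a group, per 1000000 reads of that group (CPM). Wherever 4 levels are given, they stand in the order E10 G2VInt, E11 G2VInt, E11.5 G2VInt and E11.5 G2VLo. The exact Poisson 95% interval of a level of 10 CPM or more in HC1 cluster 8 was within 9.69% of the level for each gene tabulated, and within 2.55% for the median gene; it covers counting error only, since PCR copies of 1 molecule could not be told from separate molecules. HC1 cluster 8 cells held 159181 to 6999570 reads (median 861780). Median depth was 1949030, 2498040, 1446320 and 466202 reads, and mitochondrial genes took a median of 2.05%, 2.54%, 2.55% and 5.93% of the reads. Cells in which a gene was read were counted at equal depth, on 100000 reads drawn at random from each cell (thinned reads). The library numbers of the 4 groups did not overlap, so day, gate and library block cannot be told apart between groups. The classes compared here, EC, HC1 and HC2, were present within each block.

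Of the 6 genes that gave HC1 cluster 8 its working name (Flt3, Cd27, Il12a, Pglyrp1, Postn and Cd274), 4 have a single RefSeq start, and the 250 bases before it are shown because these genes name the cells. The sequences are RefSeq's on GRCm38.p6, 5′ to 3′ on the gene's strand: Flt3 chr5:147400490-147400739 (minus), Cd27 chr6:125237028-125237277 (minus), Pglyrp1 chr7:18884440-18884689 (plus) and Cd274 chr19:29367188-29367437 (plus). Capitals mark matches, on either strand, to 4 motifs of blood transcription factors.
Flt3: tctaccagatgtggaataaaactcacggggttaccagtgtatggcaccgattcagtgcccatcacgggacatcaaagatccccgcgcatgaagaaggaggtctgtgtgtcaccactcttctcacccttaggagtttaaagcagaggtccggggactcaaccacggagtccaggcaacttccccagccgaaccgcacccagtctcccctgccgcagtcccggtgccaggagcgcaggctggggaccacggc
Cd27: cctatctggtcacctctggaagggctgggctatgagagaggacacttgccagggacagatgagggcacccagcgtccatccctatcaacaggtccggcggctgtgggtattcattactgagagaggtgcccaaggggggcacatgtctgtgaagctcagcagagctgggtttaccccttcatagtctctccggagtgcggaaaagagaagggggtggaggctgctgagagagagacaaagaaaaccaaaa
Pglyrp1: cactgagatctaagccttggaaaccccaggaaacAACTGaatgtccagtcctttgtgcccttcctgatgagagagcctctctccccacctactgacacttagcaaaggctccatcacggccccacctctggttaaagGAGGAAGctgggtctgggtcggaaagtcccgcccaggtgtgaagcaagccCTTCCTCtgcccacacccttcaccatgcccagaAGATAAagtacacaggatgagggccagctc
Cd274: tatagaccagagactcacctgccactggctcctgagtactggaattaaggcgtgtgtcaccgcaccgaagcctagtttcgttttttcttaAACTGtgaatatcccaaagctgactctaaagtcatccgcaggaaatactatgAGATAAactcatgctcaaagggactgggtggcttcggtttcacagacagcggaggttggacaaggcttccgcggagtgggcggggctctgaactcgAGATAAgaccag
The motif searched for Runx factors was TGTGGT, found in 14.05% of the 32851 RefSeq windows of this length. For GATA factors it was AGATAA (9.99%), for Spi1 it was GAGGAAG (10.6%) and for Myb it was AACTG (39.1%). No matches overlapped. The Flt3 and Cd27 windows held none of the 4 motifs. The Pglyrp1 window held 1 GATA, 2 Spi1 and 1 Myb match, and the Cd274 window 2 GATA and 1 Myb match. A match is a description of these letters, not a bound site.

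Flt3 (ENSMUSG00000042817, chromosome 5, 147330741 to 147400489, minus strand, GRCm38) was at 60.8, 48.6, 68.7 and 63.9 CPM in HC1 cluster 8, against 0.287, 0.0278, 0.945 and 0.0821 CPM in EC cells. Cd27 (chromosome 6, 125232622 to 125237010, minus strand) was at 55.9, 122.6, 160.3 and 111.9 CPM in HC1 cluster 8, against 3.34, 0.444, 4.38 and 0.624 CPM in EC. In each day and gate HC1 cluster 8 lay above EC for both genes, by 72.6-fold or more for Flt3 and by 16.7-fold or more for Cd27. The label holds for the levels of the cluster but not for each cell: thinned reads of Flt3 were found in 53.5% of its cells and those of Cd27 in 82.3%, with both genes in 92 cells (46.5%) and neither in 21 (10.6%). The share of cells with Flt3 was 58.3%, 54.8%, 51.3% and 52.2%, against 0 of 14 EC cells at E10 (exact 95% upper limit 23.2%), 0 of 15 at E11 (21.8%), 2.46% at E11.5 in G2VInt and 1.63% in G2VLo. Single-cell levels of Flt3 at E11.5 in G2VInt were 0 at the lowest, 2.17 at the median and 499.7 CPM at the highest.

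The other genes of the name are a cytokine subunit, a granule protein, a matrix protein and an immune checkpoint ligand. Il12a, the p35 subunit shared by interleukins 12 and 35, was at 25.9, 42.5, 23.5 and 28.2 CPM, against 0, 0.194, 0.241 and 1.002 in EC. Pglyrp1, a peptidoglycan-binding protein of neutrophil granules, was at 11.49, 14.6, 13.7 and 15.7 CPM in HC1 cluster 8, against 0.719, 0.0555, 1.09 and 0.246 in EC. Both genes varied by under 2-fold across the 4 groups of HC1 cluster 8 and were read in fewer of its cells than Cd27. Postn, which encodes the matrix protein periostin, was at 21.7, 24.2, 22.4 and 20.7 CPM, against 0.0359, 1.53, 1.01 and 0.558 in EC. Cd274, which encodes PD-L1, was at 5.62, 16.2, 22.4 and 10.2 CPM, against 0, 0.0555, 0.841 and 0.197 in EC. All 6 genes were therefore above EC in every day and gate, although Cd274 at E10 lay under 10 CPM. These genes were proposed with the clusters known, so this is a description of the cells and not a test of them.

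**Figure D1:**
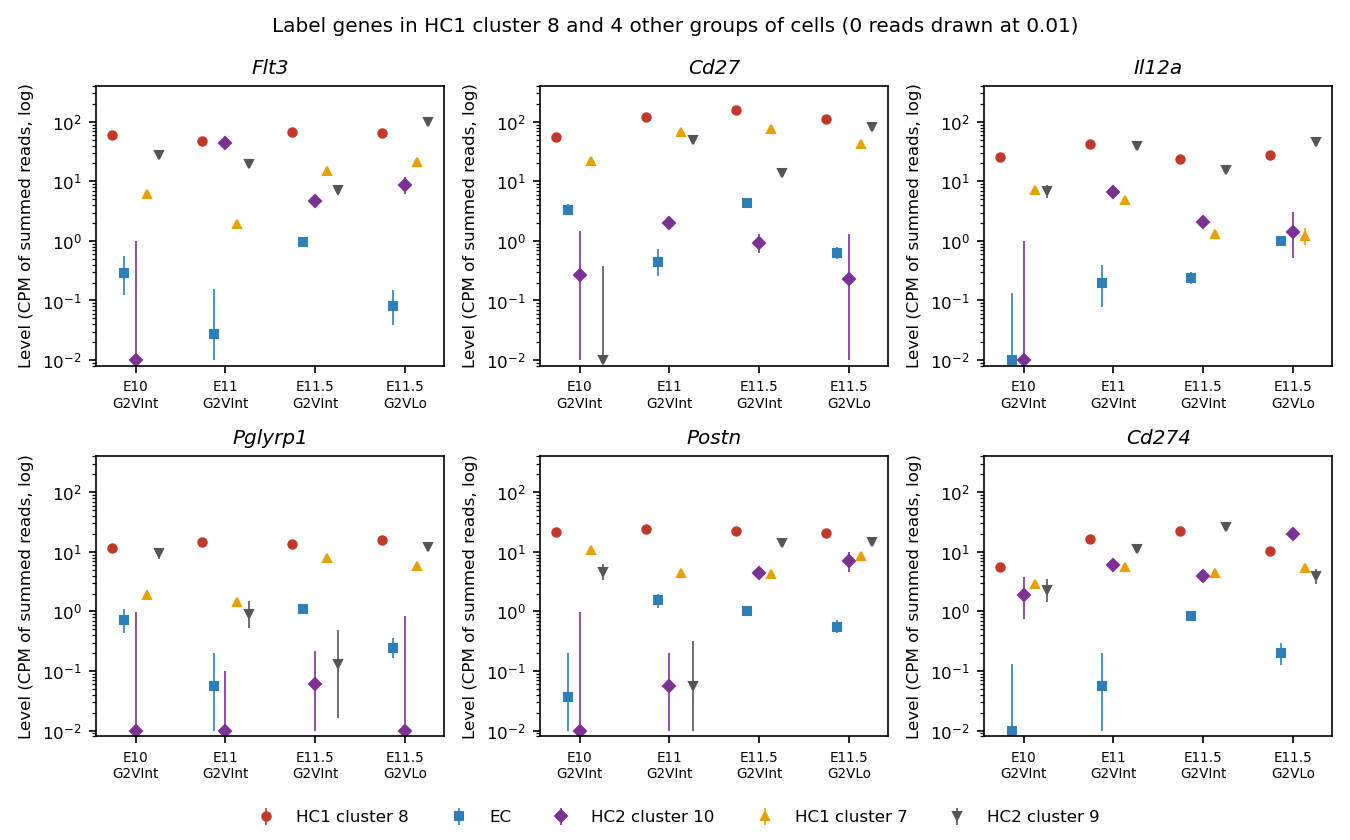
Levels of the 6 genes that name HC1 cluster 8 (CPM of reads summed over the cells of a group, log axis) by day and gate, for HC1 cluster 8, EC, HC2 cluster 10, HC1 cluster 7 and HC2 cluster 9; bars are exact Poisson 95% intervals, and 0 reads are drawn at 0.01. HC1 cluster 8 lies above EC throughout, HC1 cluster 7 lies between them in most groups, and HC2 cluster 9 comes close to or above HC1 cluster 8 for Flt3 (98.2 against 63.9 CPM in HC1 cluster 8) and Il12a in the G2VLo group.

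At equal depth, 62.1% of HC1 cluster 8 cells (exact Clopper-Pearson 95% interval 54.97 to 68.9) had reads of at least 3 of the 6 genes, against 2 EC cells (0.597%, 0.0724 to 2.14), 0 of 52 HC2 cluster 10 cells (up to 6.85%) and 20 HC1 cluster 7 cells (9.66%, 6.00 to 14.5). The share in HC1 cluster 8 by day and gate was 69.4%, 67.7%, 74.4% and 52.2%. HC2 cluster 9, a neighbouring cluster of another class, came nearest: 19 of its 43 cells (44.2%, 29.1 to 60.1) met the same limit, and 14 of these 19 were among its 23 G2VLo cells. The combination of these genes was thus not confined to HC1 cluster 8. Mpo differed between them, at 290.01, 330.9, 356.6 and 348.7 CPM in HC1 cluster 8, against 2551, 4338, 3788 and 1878 CPM in HC2 cluster 9, which held 5, 7, 8 and 23 cells.

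**Figure D2:**
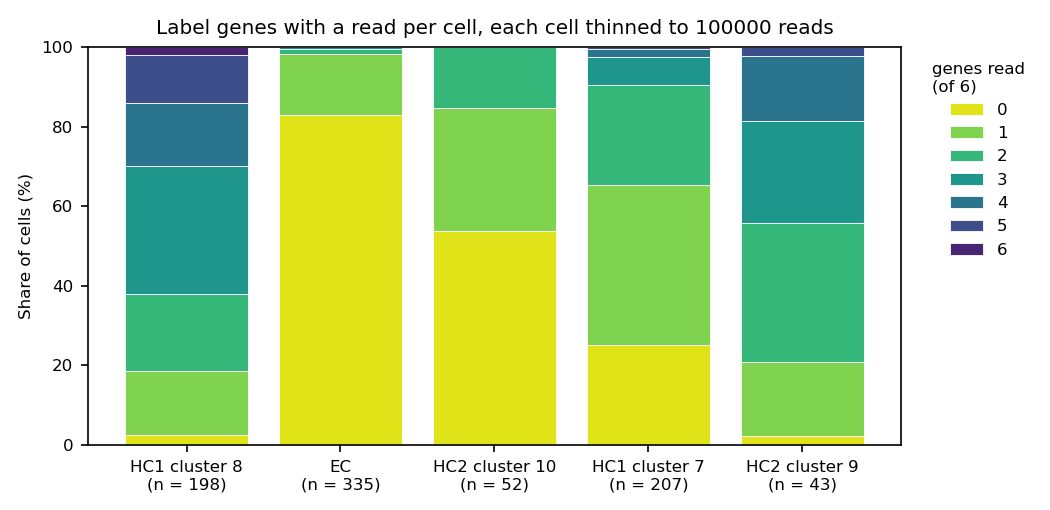
Share of cells (%) by how many of the 6 naming genes had a read after thinning to 100000 reads, for HC1 cluster 8 and 4 other groups of cells, all days and gates together. HC1 cluster 8 has a median of 3 genes per cell, against 0 in EC and HC2 cluster 10, 1 in HC1 cluster 7 and 2 in HC2 cluster 9.

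The genes behind the sort bear on what the gates selected. Gata2 was at 102.3, 123.2, 173.7 and 95.8 CPM in HC1 cluster 8, against 73.7, 81.4, 80.8 and 42.4 in EC, and against 192.3, 289.4, 289.6 and 165.6 in HC1 cluster 7. Within HC1 cluster 8 it was lower in G2VLo than in G2VInt cells at E11.5, in the direction of the Venus gate. Kit, the stem cell factor receptor, was at 623, 639, 587 and 542 CPM, against 251.2, 162.8, 137.3 and 136.05 in EC. Pecam1, which encodes CD31, was at 186.2, 286.3, 243.3 and 211.5 CPM, against 983, 951, 958 and 838 in EC. HC1 cluster 8 thus held Kit and Pecam1 reads together, with more Kit and less Pecam1 than EC in all 4 groups.

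The first comparison, with EC cells of the same day and gate, sets the cluster against cells that carry endothelial markers. HC1 cluster 8 carried pan-hematopoietic, myeloid and cytokine receptor genes at higher levels than EC, and endothelial genes at lower levels. A gene was called where it differed by at least 2-fold in the same direction in each of the 4 days and gates, with at least 10 CPM in 1 of both in each, and where 20% or more of the cells with the higher level had a thinned read. Of 9647 genes measured, 621 were higher (6.44%) and 881 lower (9.13%) than in EC. Over all measured genes the log2 ratio had a median of 0.19, or 0.05 with TMM scaling. A gene that met the level limit only through its higher group had to differ, so list counts describe the cells and are no evidence beyond the clustering.

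Of 20 pan-hematopoietic genes, 17 were measured against EC, 15 were higher and none lower, with a median log2 ratio of 5.40. Ptprc, which encodes the blood cell phosphatase CD45, was at 80.1, 141.4, 157.5 and 135.9 CPM in HC1 cluster 8, against 0.252, 0.2499, 1.18 and 0.337 in EC. Rac2, a GTPase of blood cells, was at 483, 521, 651 and 551 CPM, against 1.01, 1.86, 4.86 and 3.25 in EC. Vav1, an exchange factor for such GTPases, was at 131.7, 157.8, 129.5 and 108.8 CPM, against 0.503, 0.417, 1.24 and 2.61 in EC. None of these ranges overlapped, and each EC level was under 6 CPM.

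Transcription factors known from the endothelial-to-hematopoietic switch showed the same separation: 8 of 15 measured were higher than in EC and none lower. Gfi1b, a repressor that acts with Runx1 in this transition, was at 138.8, 112.9, 101.9 and 112.6 CPM, against 0.323, 0.361, 0.144 and 5.35 in EC. Spi1, the myeloid and lymphoid factor PU.1, was at 367.4, 375.3, 447.7 and 362.6 CPM, against 1.33, 0.805, 5.605 and 2.36 in EC. Ikzf1, the lymphoid factor Ikaros, was at 330.5, 196.5, 191.3 and 181.8 CPM, against 0.934, 0.528, 2.94 and 1.05 in EC. All 3 were higher than EC in every group. Runx1 itself, named after its values were seen, was at 318.7, 306.7, 200.3 and 201.9 CPM, against 1.62, 3.33, 3.25 and 3.29 in EC.

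Genes known from hematopoietic stem cells (HSCs) were mixed against EC. Of 19 nuclear factors measured, 8 were higher and 1 lower. Hlf, a leucine zipper factor of HSCs, was at 54.4, 100.3, 77.3 and 86.5 CPM, against 0.0359, 1.08, 1.14 and 0.616 in EC. Nkx2-3, a homeobox factor, was at 30.1, 77.3, 103.5 and 51.4 CPM, against 9.20, 1.08, 9.30 and 3.998 in EC. Both were above EC at all times. Of 15 measured HSC surface genes, 5 were higher and 3 lower. Tek, the angiopoietin receptor shared by endothelium and HSCs, was at 98.3, 179.3, 138.4 and 135.5 CPM, against 529, 601, 477 and 334.8 in EC, and was among the lower genes of that list.

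Receptors and granule genes of progenitors were prominent. Of 18 cytokine receptor genes, 13 were measured, of which 9 were higher than EC and none lower. Among the higher ones were Il12rb2, a subunit of the interleukin 12 receptor (43.1, 36.5, 51.3 and 36.8 CPM, against 0.611, 0.472, 0.230 and 1.08 in EC) and Il6ra, the interleukin 6 receptor (24.02, 30.3, 14.3 and 22.8 CPM, against 0.395, 0.139, 1.01 and 0.829 in EC). Of 20 myeloid genes, 10 were measured, of which 9 were higher. Mpo, the myeloperoxidase of neutrophil granules, was at 290.01, 330.9, 356.6 and 348.7 CPM, against 2.95, 0.972, 3.07 and 2.91 in EC. Prtn3, the granule protease proteinase 3, was at 128.6, 102.6, 142.8 and 101.9 CPM, against 0.575, 0.361, 0.924 and 0.443 in EC. Thinned reads of Mpo were found in 96.2% of the HC1 cluster 8 cells with Flt3 and in 95.7% of those without, so Mpo was read in nearly all cells, with or without Flt3. Lymphoid genes were fewer: 8 of 24 were measured, of which 4 were higher and 2 lower. Il7r, the interleukin 7 receptor of lymphoid progenitors, named after its values were seen, was read in 14 of the cells with Flt3 and 4 of those without. By day and gate these were 3, 0, 5 and 6 cells with Flt3, against 2, 1, 0 and 1 cells without it, so the excess came from E11.5.

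Of 16 immune ligand and checkpoint genes, 6 were measured, of which 5 were higher than EC and 1 lower. Il12a is part of the name of the cells. Ebi3, whose product pairs with that of Il12a to form interleukin 35, ranked among the 12 highest by the smallest ratio over the groups, at 19.1, 28.9, 59.7 and 51.3 CPM, against 0.108, 0.2499, 0.554 and 0.378 in EC. Ltb, which encodes lymphotoxin beta, was at 25.4, 23.5, 42.99 and 56.96 CPM, against 1.87, 9.75, 7.36 and 4.31 in EC. Cd200, a ligand that restrains myeloid cells, was lower at 2.24, 1.53, 1.80 and 4.90 CPM, against 15.3, 35.5, 36.5 and 32.3 in EC. The rest of the 12 highest included Coro2a, a coronin (45.7 to 99.01 CPM, against 0.0739 to 0.464 in EC), Gpr171 (21.5 to 61.4, against 0.180 to 0.361), Rnase6 (30.8 to 83.7, against 0.0821 to 0.626), Ramp1 (15.4 to 94.2, against 0 to 0.230) and the keratin gene Krt7 (12.5 to 21.6, against 0.0410 to 0.111). Tspoap1 and Tnni2 completed the ranking with Ptprc, Rac2, Mpo and Prtn3.

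The endothelial program was lower but not gone. Of 22 pan-endothelial genes, all measured, 17 were lower than EC and none higher, with a median log2 ratio of −2.83. Cdh5, which encodes the junction protein VE-cadherin, was at 47.3, 95.004, 59.7 and 50.4 CPM in HC1 cluster 8, against 350.9, 435.3, 313.1 and 258.4 in EC. Emcn, which encodes the vessel sialomucin endomucin, was at 56.7, 99.02, 124.2 and 113.8 CPM, against 1632, 2222, 1755 and 1695 in EC. Kdr, the VEGF receptor, was at 76.3, 57.04, 34.3 and 40.1 CPM, against 1382, 1213, 1006 and 653 in EC. Each of these stayed above 30 CPM in HC1 cluster 8 and below EC in all groups. Thinned reads of Ptprc and Cdh5 were found together in 71.7% of the cells.

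Among vessel identity genes the venous ones were lowest. All 5 venous genes were lower, with a median log2 ratio of −6.36. Aplnr, the apelin receptor, was at 1.017, 0.775, 28.3 and 3.65 CPM, against 2070.4, 2546, 2427 and 1811 in EC, and Nr2f2, the venous factor COUP-TFII, at 0.0407, 0.106, 1.61 and 0.160 CPM, against 54.4, 118.5, 108.96 and 77.001 in EC. Of 10 measured arterial genes, 6 were lower and none higher, with a median log2 ratio of −2.92. Sox17, an arterial factor, was at 1.13, 10.3, 18.6 and 18.3 CPM, against 235.8, 263.5, 240.8 and 266.9 in EC. In the Notch list 3 of 11 were lower and 1 higher. The ligand gene Dll1 was at 0.163, 0.0352, 0.197 and 0.0228 CPM, against 71.7, 73.3, 81.6 and 46.3 in EC, whereas the receptor gene Notch2 was higher, at 19.2, 12.4, 22.8 and 23.4 CPM, against 4.89, 3.11, 4.54 and 4.52 in EC. The genes lowest by rank also included Cd40, a TNF receptor family gene (0.0117 to 0.182 CPM, against 44.5 to 57.6 in EC), Tbx3 (0.0456 to 0.0607, against 21.8 to 83.3), Lama1 (0.0352 to 0.136, against 27.4 to 78.6) and Lhx6 (0.0136 to 0.273, against 39.02 to 91.2). Fmo1, Hoxd9, Adh6b, Scarf2, Prss23, Timp1 and Tll1 completed that ranking.

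**Figure D3:**
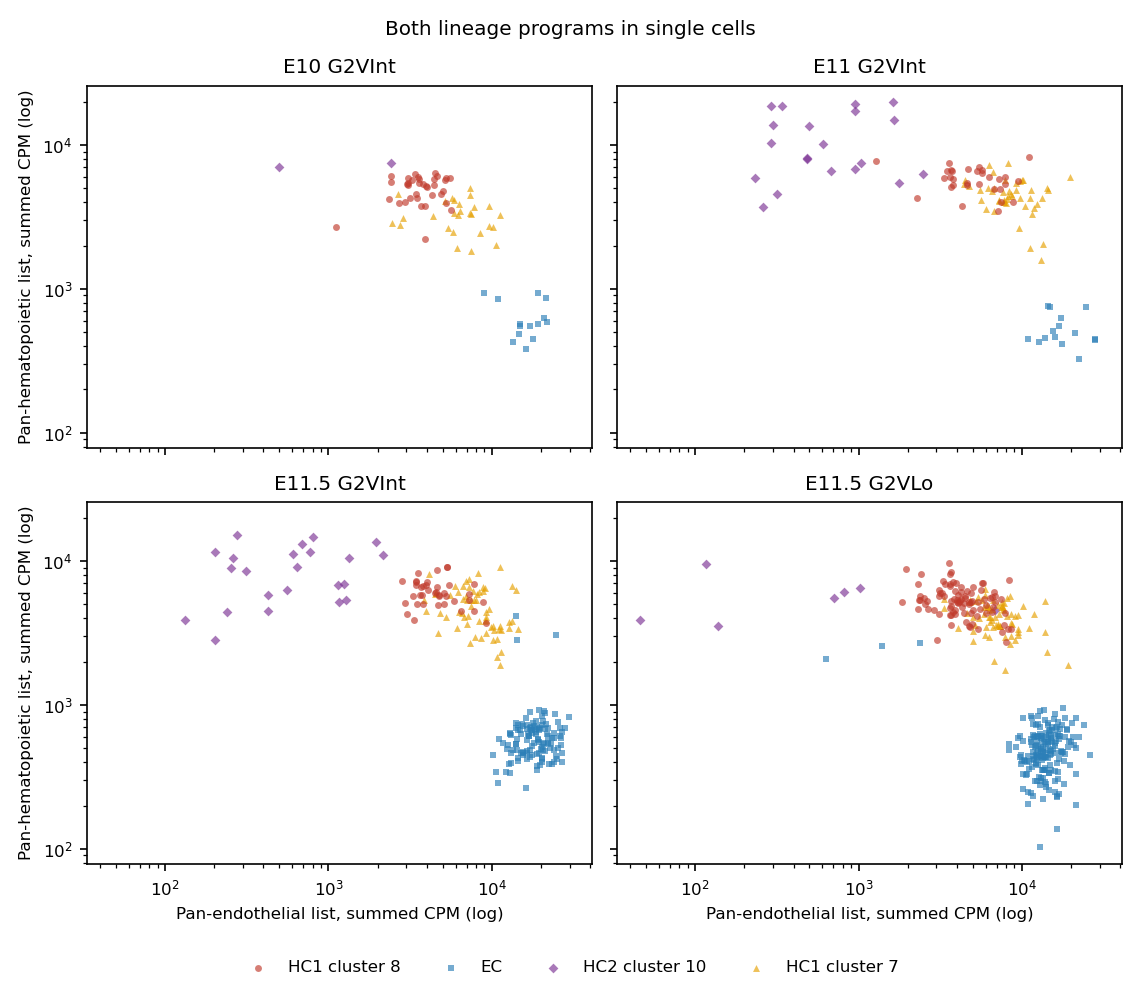
Each point is 1 cell, placed by its summed CPM of 22 pan-endothelial genes (x, log axis) and of 20 pan-hematopoietic genes (y, log axis), in 1 panel per day and gate, for HC1 cluster 8, EC, HC2 cluster 10 and HC1 cluster 7. HC1 cluster 8 cells (medians 4202 and 5427 CPM) lie between EC cells (15117 and 524 CPM) and HC2 cluster 10 cells (605 and 7767 CPM) on the endothelial axis, and beside HC1 cluster 7.

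Single cells showed the same position. The pan-hematopoietic genes summed to 2233 at the lowest, 5427 at the median and 9624 CPM at the highest in HC1 cluster 8 cells, against 102.4, 524 and 4123 CPM in EC cells. Only 5 EC cells (1.49%) lay inside the range of HC1 cluster 8. The pan-endothelial genes summed to 1120, 4202 and 11084 CPM in HC1 cluster 8, against 630 at the lowest, 15117 at the median and 29659 CPM at the highest in EC. Of the EC cells, 30 (8.96%) lay inside the range of HC1 cluster 8, 90.7% above it and 1 cell below it, so few EC cells reached the range of HC1 cluster 8 on either list. All HC1 cluster 8 cells lay inside the wider EC range of the endothelial sum, because of a few EC cells with low sums. With only the cells that both clusterings of the authors placed alike, 619 genes were higher and 875 lower than EC.

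No proliferation gene reached 2-fold against EC in every group: 0 of 41 S phase genes and 0 of 52 G2 and M phase genes were called. Of all genes, 6.44% were called higher and 9.13% lower. Most proliferation genes still had a positive log2 ratio, 37 of the S phase and 51 of the G2 and M phase genes. Their median log2 ratios were 0.53 and 0.69, against 0.19 over all measured genes. For the G2 and M phase genes the ratio by day and gate was 0.79, 0.79, 0.70 and −0.15. Among D cyclins and inhibitors, Cdk6 was higher (297.3, 186.1, 129.1 and 178.9 CPM, against 50.5, 35.8, 35.4 and 29.6 in EC) and Ccnd1, which encodes cyclin D1, was lower (22.1, 41.2, 30.1 and 57.8 CPM, against 251.4, 198.996, 239.4 and 307.01 in EC). Of 12 measured immediate-early genes, 4 were lower than EC, among them Atf3 (3.87, 1.68, 1.32 and 5.70 CPM, against 225.8, 121.6, 89.3 and 140.9 in EC). The median log2 ratio of the immediate-early genes by day and gate was −1.82, −0.59, −0.56 and 0.41, so its sign differed in G2VLo.

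Of the markers of other cells that such a sort could hold, the macrophage and mesenchymal lists had low sums in HC1 cluster 8. The macrophage sum was below that of EC, and the mesenchymal, megakaryocyte, mast cell and erythroid sums were above it. The macrophage list of 16 genes summed to a median of 32.03 CPM per cell, against 83.7 in EC, and 51 cells (25.8%) had no thinned read of it. The mesenchymal list of 14 genes summed to a median of 33.3 CPM, against 12.6 in EC, and it holds Postn itself. Of its 3 measured genes Postn was called higher and Col3a1 lower, while Acta2, smooth muscle actin, was at 32.4, 81.9, 10.9 and 87.05 CPM, against 1.44, 4.89, 6.73 and 3.56 in EC, and was not called. Col3a1, a collagen gene that defines mesenchyme, was at 0.0407, 0.0705, 0.0910 and 0.160 CPM, against 12.001, 36.2, 21.4 and 18.5 in EC.

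The megakaryocyte list of 15 genes summed to a median of 731 CPM per cell in HC1 cluster 8, against 26.7 in EC, and 5 of its 7 measured genes were called higher, with a median log2 ratio of 4.87. Itga2b, which encodes CD41, an integrin of platelets and of early embryonic blood progenitors, was at 214.9, 135.8, 78.8 and 74.3 CPM, against 20.5, 3.499, 7.81 and 20.5 in EC. Plek, the platelet protein pleckstrin, was at 332.3, 88.4, 103.5 and 119.8 CPM, against 0.970, 3.94, 2.71 and 18.4 in EC. The sum of the megakaryocyte list reached 14372 CPM in 1 EC cell of E11.5 G2VLo, where its median was 16.6 CPM. The part of that cell in these EC levels was not tested. The mast cell and basophil list of 22 genes summed to a median of 435.9 CPM, against 40.9 in EC, with 2 of 3 measured genes higher, and the erythroid list of 19 genes to 402.1 CPM, against 27.4 in EC, with 1 of 3 higher. In HC1 cluster 8, 1 gene of the megakaryocyte list, 6 of the mast cell list and 1 of the erythroid list had no read. The part of these markers in the counts against EC was not tested.

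**Figure D4:**
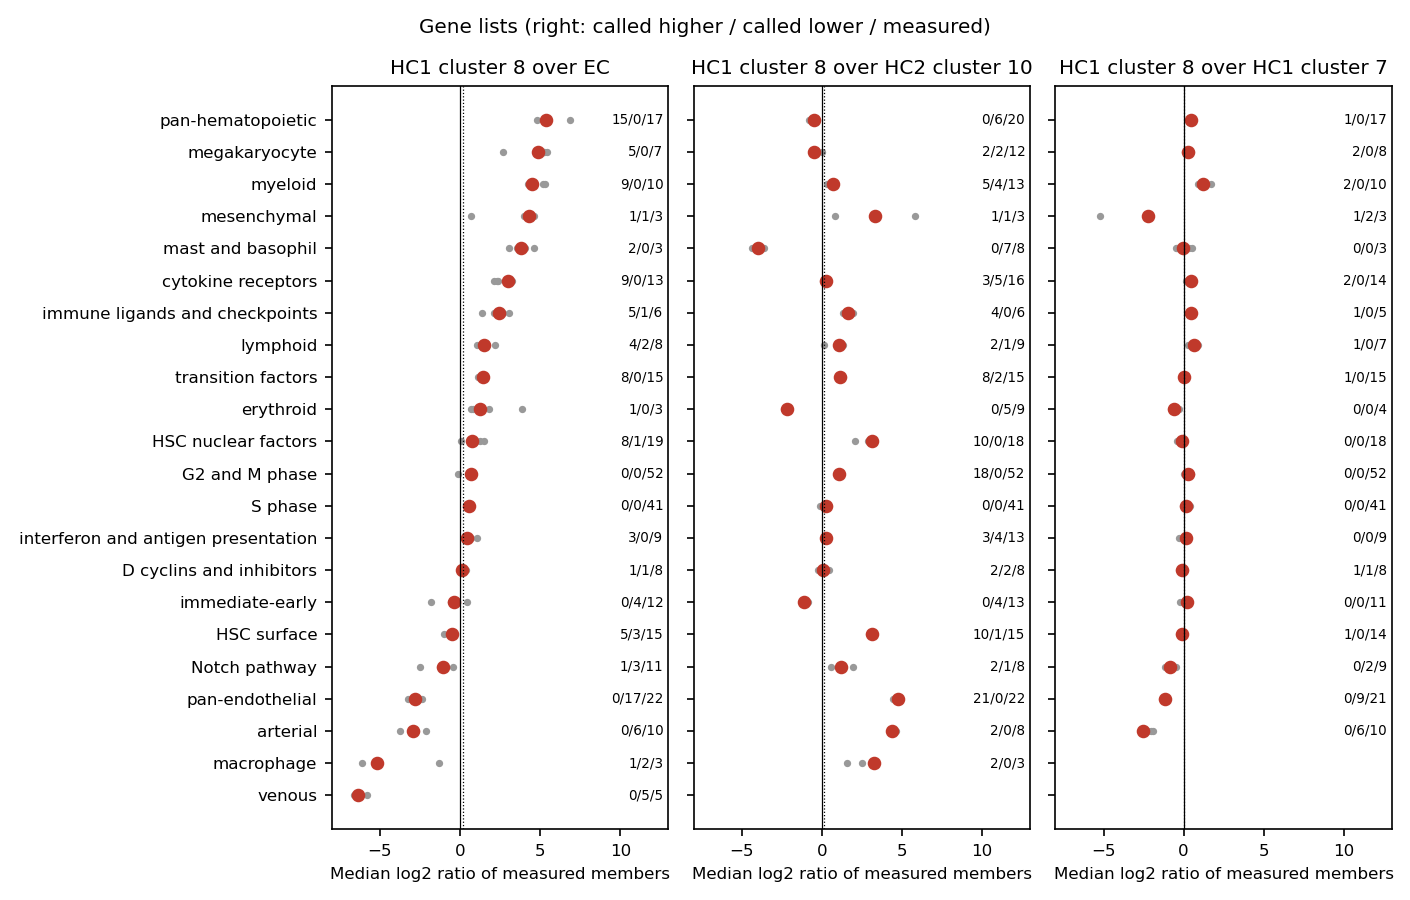
Median log2 ratio of the measured members of each gene list in HC1 cluster 8 over EC (left), over HC2 cluster 10 (middle) and over HC1 cluster 7 (right); large points are the median over all days and gates used, small grey points the single days and gates, the dotted line the median of all measured genes, and the numbers the genes called higher, called lower and measured. Against EC the pan-hematopoietic list lies at 5.40 and the pan-endothelial list at −2.83, against HC2 cluster 10 they lie at −0.52 and 4.78, and against HC1 cluster 7 at 0.45 and −1.18.

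The second comparison, with HC2 cells of cluster 10, sets HC1 cluster 8 against blood cells of another class within the same gate. It used E11 and E11.5 in G2VInt, since the other 2 groups held fewer than 10 such cells, and pairs of levels are given in that order. HC1 cluster 8 had more of endothelial and HSC genes and less of mast cell and erythroid genes. Of 9750 genes measured, 886 were higher (9.09%) and 478 lower (4.90%) than in HC2 cluster 10.

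Of 22 pan-endothelial genes, 21 were higher in HC1 cluster 8 than in HC2 cluster 10, with a median log2 ratio of 4.78. Cdh5 was at 95.004 and 59.7 CPM, against 1.07 and 0.968 in HC2 cluster 10, and Vwf, the von Willebrand factor gene, at 283.5 and 134.5 CPM, against 1.46 and 1.996. The levels that were low beside EC were therefore high beside HC2 cluster 10. Pecam1 was at 286.3 and 243.3 CPM, against 133.9 and 138.4 in HC2 cluster 10, a difference of under 2-fold at E11.5.

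HSC genes were the other large group. Of 18 nuclear factors measured, 10 were higher than in HC2 cluster 10 and none lower. Hoxa9, a homeobox factor of HSCs and progenitors, was at 126.5 and 106.8 CPM, against 0.523 and 0.423 in HC2 cluster 10. Hoxa10 was at 44.8 and 31.5 CPM, against 0.220 and 0.121. Both genes were also read in EC, at 83.8 and 71.4 CPM for Hoxa9 and 40.8 and 29.3 CPM for Hoxa10. For both genes HC2 cluster 10 was the lowest of the 3 groups of cells. Mecom, which encodes the HSC factor EVI1, was at 186.4 and 107.4 CPM, against 1.93 and 0.816 in HC2 cluster 10. Procr, which encodes the HSC surface protein EPCR, was at 250.3 and 133.9 CPM, against 4.41 and 1.54, and Ly6a, which encodes SCA-1, at 13.3 and 24.6 CPM, against 0.110 and 0.0302. Of 15 surface genes measured, 10 were higher and 1 lower.

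Of the genes that name the cells, 5 of 6 were higher than in HC2 cluster 10, and Flt3 was not called. Flt3 was at 48.6 and 68.7 CPM, against 44.3 and 4.63 in HC2 cluster 10; its level at E11 in HC2 cluster 10 came from 2 of 20 cells with a thinned read. Pglyrp1 was at 14.6 and 13.7 CPM, against 0 and 0.0605, which rests on 0 and 2 reads in HC2 cluster 10. The ratio for Pglyrp1 was at least 176.7-fold at E11 against the floor of 3 reads, and 227.2-fold (counting interval 62.7 to 1879) at E11.5.

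Mast cell and erythroid genes were lower in HC1 cluster 8. Of 8 mast cell and basophil genes measured, 7 were lower and none higher. Cpa3, the mast cell carboxypeptidase, was at 0.164 and 0.516 CPM, against 673 and 227.4 in HC2 cluster 10, and Hdc, which makes histamine, at 1.21 and 3.49 CPM, against 1236 and 519. Of 9 erythroid genes measured, 5 were lower. Car1, a red cell carbonic anhydrase, was at 0.153 and 0.152 CPM, against 186.04 and 256.7, and Kel, the Kell blood group gene, at 0.188 and 0.0758 CPM, against 415.1 and 175.03. Gata1, the factor of erythroid, mast and megakaryocyte cells, was at 6.22 and 16.4 CPM, against 259.6 and 409.02, while Gata2 was lower in HC1 cluster 8 as well, at 123.2 and 173.7 CPM, against 636 and 703. All these genes were in the same direction on both days. The lowest ranks also held Slc45a3, Atp1b2, Pdzph1, Cd3g, Gpr141, Pirb and Foxh1.

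Myeloid genes pointed both ways against HC2 cluster 10, with 5 of 13 higher and 4 lower. Irf8, a factor of monocyte and dendritic cell progenitors, was at 25.4 and 31.6 CPM, against 1.019 and 1.75 in HC2 cluster 10, and Csf1r, the macrophage colony stimulating factor receptor, at 29.3 and 16.8 CPM, against 5.10 and 0.968. Fcgr3, an Fc receptor gene, was at 19.6 and 17.9 CPM, against 589 and 305.3. Mpo, so far above EC, was at 330.9 and 356.6 CPM in HC1 cluster 8, against 517 and 782 in HC2 cluster 10, and was not called. Of 20 pan-hematopoietic genes, 6 were lower than in HC2 cluster 10, among them Cd53 (1.76 and 5.72 CPM, against 422.4 and 165.8), Cd48 (3.49 and 1.79 CPM, against 43.2 and 55.6) and Rac2 (521 and 651 CPM, against 1961 and 1551). Cytokine receptors were also split, 3 of 16 higher and 5 lower: Il6ra was at 30.3 and 14.3 CPM, against 0.138 and 1.97, and Il1rl1, the interleukin 33 receptor of mast cells, at 0.505 and 0.379 CPM, against 71.98 and 34.3.

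Cell cycle genes differed in part from HC2 cluster 10: 18 of 52 G2 and M phase genes were higher, none lower, and 0 of 41 S phase genes were called. Anln, which encodes the cytokinesis protein anillin, was at 173.8 and 122.4 CPM, against 24.9 and 25.004 in HC2 cluster 10. Ccnd1 was at 41.2 and 30.1 CPM, against 4.99 and 2.66, and Cdkn1a, which encodes the inhibitor p21, at 15.5 and 9.33 CPM, against 132.4 and 62.9. Immediate-early genes were lower in 4 of 13. Single cells overlapped on the blood genes but less on the endothelial ones: 32 of 52 HC2 cluster 10 cells lay inside the pan-hematopoietic range of HC1 cluster 8 and 13 inside its pan-endothelial range.

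The other HC1 cluster is the nearest neighbour by class. HC1 cluster 8 differed from HC1 cluster 7 in few genes, among them lower arterial and pan-endothelial genes. Of 9215 genes measured, 38 were higher (0.412%) and 99 lower (1.07%). With only the cells placed alike by both clusterings, 61 genes were higher (0.659%) and 1.85% were lower.

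Of 10 arterial genes measured, 6 were lower than in HC1 cluster 7 and none higher. Gja5, which encodes the arterial gap junction protein connexin 40, was at 4.99, 41.3, 8.17 and 20.2 CPM in HC1 cluster 8, against 50.7, 188.7, 116.2 and 122.2 in HC1 cluster 7. Dll4, the arterial Notch ligand, was at 2.39, 22.2, 7.93 and 17.5 CPM, against 48.3, 95.9, 74.3 and 85.4, and Hey1, a Notch target, at 1.41, 10.4, 21.5 and 17.1 CPM, against 51.1, 87.8, 71.9 and 69.2 in HC1 cluster 7. All 3 were at their lowest in HC1 cluster 8 at E10. Of 21 pan-endothelial genes measured, 9 were lower and none higher, with Cdh5 at 47.3, 95.004, 59.7 and 50.4 CPM, against 146.3, 183.8, 157.5 and 114.9 in HC1 cluster 7, and Cldn5, a tight junction gene, at 13.4, 73.2, 106.7 and 60.4 CPM, against 203.2, 350.3, 487 and 415.8. Acta2 was at 32.4, 81.9, 10.9 and 87.05 CPM, against 162.1, 373.2, 422.7 and 370.2, and Tagln, another smooth muscle gene, at 0.0950, 2.42, 0.485 and 3.03 CPM, against 27.6, 14.1, 18.4 and 14.6. Matrix genes Fbn1 (0.109 to 1.03 CPM, against 21.4 to 48.6) and Ltbp1 (14.1 to 18.8 CPM, against 69.7 to 145.2) were lower too, as were Col26a1, Nrp1, Crip2 and Ctsh.

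The genes higher than in HC1 cluster 7 began with Bin2, a leukocyte membrane-shaping protein, at 141.002, 242.7, 221.7 and 155.5 CPM, against 12.1, 45.7, 20.03 and 9.71 in HC1 cluster 7. Rac2 was at 483, 521, 651 and 551 CPM, against 54.7, 115.4, 123.9 and 120.5. Fcer1g, an adaptor of Fc receptors, was at 138.5, 43.7, 84.3 and 48.2 CPM, against 30.7, 8.18, 10.98 and 7.96, and Pik3cd, a leukocyte PI3-kinase subunit, at 65.2, 53.004, 39.1 and 36.8 CPM, against 8.72, 6.46, 7.43 and 8.40. Each of these was above HC1 cluster 7 in every day and gate. Slc16a10, Cnrip1, Coro2a and Il12a completed the ranking. Of the genes that name the cells, 3 of 5 measured were called: Flt3, with 6.17, 1.93, 15.2 and 20.9 CPM in HC1 cluster 7, Il12a, with 7.21, 4.90, 1.29 and 1.21 CPM, and Postn, with 10.6, 4.36, 4.30 and 8.59 CPM. Cd27 was at 21.7, 66.3, 76.2 and 41.7 CPM in HC1 cluster 7, below HC1 cluster 8 in each group but within 2-fold of it at E11. Gfi1b was higher in HC1 cluster 8 (138.8, 112.9, 101.9 and 112.6 CPM, against 54.2, 50.8, 37.6 and 26.5), as was Plek (332.3, 88.4, 103.5 and 119.8 CPM, against 103.2, 11.7, 9.84 and 22.3).

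Of 18 HSC nuclear factors measured, 0 were called against HC1 cluster 7, near the 0.412% higher and 1.07% lower of all genes, with a median log2 ratio of −0.12. Hlf was at 51.8, 78.3, 76.4 and 54.01 CPM in HC1 cluster 7, and Mecom at 50.9, 186.4, 107.4 and 89.7 CPM in HC1 cluster 8, against 130.7, 327.8, 231.1 and 187.005 in HC1 cluster 7. Procr was at 30.9, 250.3, 133.9 and 172.9 CPM, against 125.03, 457.4, 531 and 454.3 in HC1 cluster 7. Mecom and Procr were below HC1 cluster 7 in each group, yet not 2-fold in all. No G2 and M phase, S phase, erythroid, mast cell or interferon gene of the lists was called in either direction, where few of all genes were called as well. Of the HC1 cluster 7 cells, 94.7% lay inside the pan-hematopoietic and 85.5% inside the pan-endothelial range of HC1 cluster 8.

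HC1 cluster 8 was not uniform. The authors' clustering of all cells placed 85.9% of its cells in its cluster 8, 23 cells in its cluster 7, 3 in cluster 4 and 1 each in clusters 9 and 10. The 23 cells placed in cluster 7 came from E11 and E11.5 (0, 7, 8 and 8 cells), while those placed in cluster 8 included E10 (35, 24, 28 and 83 cells), where Cdh5 was lowest. The values below pool these days and gates. The 23 cells had a Cdh5 level of 130.4 CPM (Poisson interval 126.5 to 134.4), against 57.4 CPM (56.4 to 58.4) in those placed in cluster 8. Their pan-endothelial genes summed to a median of 7278 CPM, against 3943 CPM in those placed in cluster 8. Their levels of Flt3 (26.2 against 65.8 CPM), Il12a (7.42 against 34.6 CPM), Pglyrp1 (4.33 against 15.3 CPM) and Postn (7.73 against 25.6 CPM) were lower. That of Cd274 was higher (17.4 against 12.99 CPM). Those of Ptprc (128.3 against 129.1 CPM) and Cd27 (123.6 against 113.1 CPM) were close. These placements come from the genes themselves, so the differences describe the cells.

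Between days, HC1 cluster 8 cells at E10 stood apart in a small number of genes, in a contrast added after the data were seen. Of 9542 genes measured, 46 were at least 2-fold higher at E10 than in each later day and gate (0.482%), and 1.35% were lower. Sall4, a zinc finger factor of early embryonic cells, was at 32.9, 1.63, 1.80 and 5.29 CPM, and was read in 27 of 36 cells, 2 of 31, 1 of 39 and 12 of 92, in the same order. Bcat1, a branched-chain amino acid transaminase, was at 57.6, 16.1, 11.1 and 8.52 CPM, and Perp, a desmosome-associated gene, at 66.2, 6.06, 6.94 and 11.2 CPM. Rab44, Sall3, Epha4, Ubash3a and Rgcc were also among the highest at E10. Of the 46, 18 were also called higher at E10 in HC1 cluster 7 (39.1% of the 46, and 17.1% of the genes called there), against 3 in EC (6.52% of the 46, and 2.33% of the genes called there). Of the 46, 30 were measured in HC1 cluster 7, where 1.08% of all genes were called higher, and 25 in EC, where 1.33% were. Sall4 at E10 was at 32.9 CPM in HC1 cluster 8, 20.8 CPM in EC and 37.4 CPM in HC1 cluster 7.

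Among the genes low at E10, Robo4, an endothelial guidance receptor, was at 3.69, 55.8, 49.4 and 44.9 CPM. Ly6a was at 1.22, 13.3, 24.6 and 11.4 CPM and was read in 2 of 36, 9 of 31, 20 of 39 and 21 of 92 cells. Oasl2 (1.33, 16.5, 13.7 and 26.8 CPM) and Ddx58, which encodes the RNA sensor RIG-I (2.33, 13.7, 20.5 and 16.7 CPM), are interferon-inducible. All of these were lowest at E10 in HC1 cluster 8, by at least 2-fold. They were lowest at E10 in HC1 cluster 7 as well, with Robo4 there at 6.97, 59.5, 80.3 and 57.5 CPM. Tns2, Prex2, Cfp and Trpv2 were also among the lowest. Of the genes called lower, 35 were also called lower at E10 in HC1 cluster 7 (27.1% of them, and 17.8% of the genes called there), against 4 in EC (3.10% of them, and 2.90% of the genes called there). HC1 cluster 7 measured 88.4% of them and called 2.02% of all its genes lower, and EC measured 68.2% of them and called 1.42% lower.

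**Figure D5:**
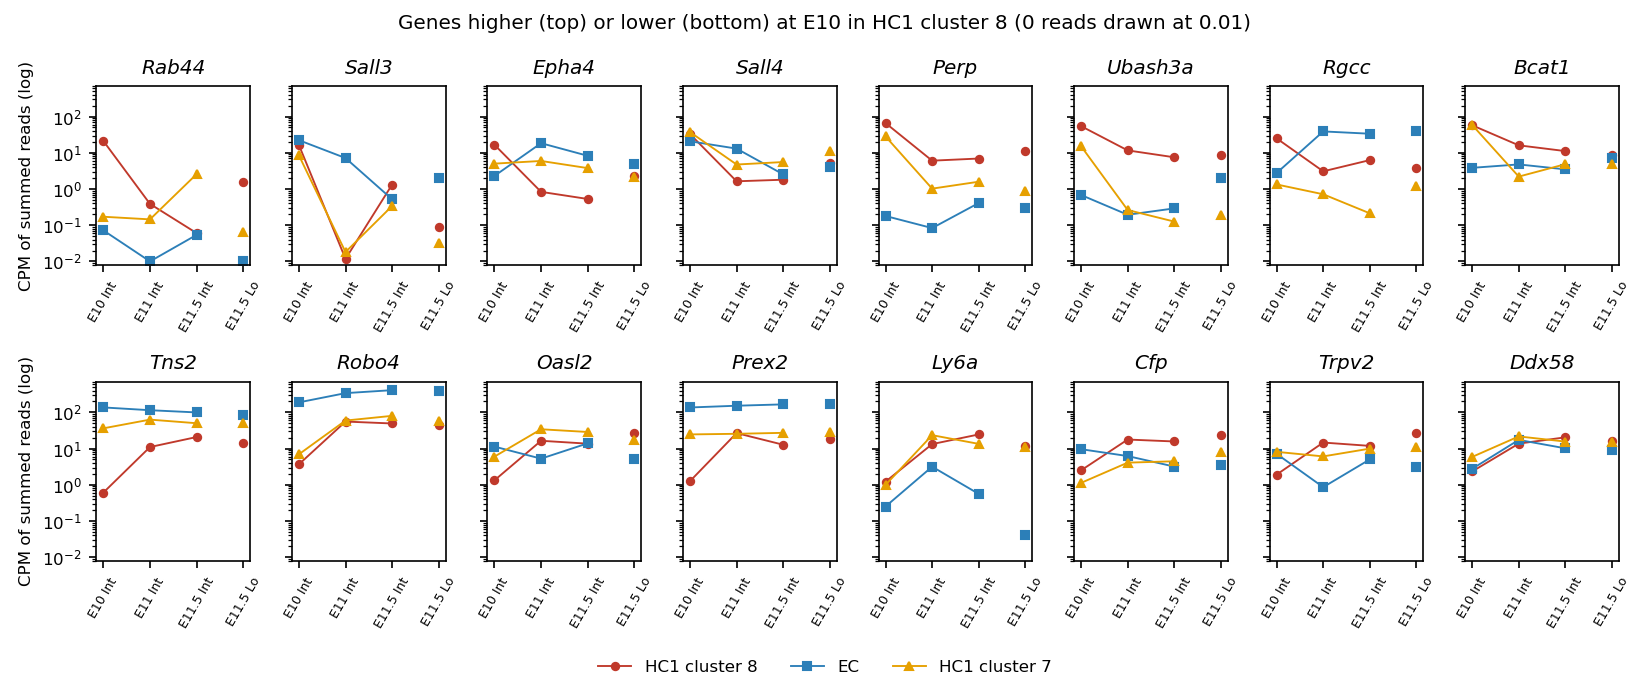
Levels (CPM of summed reads, log axis, 0 reads drawn at 0.01) of the 8 genes ranked highest (top) and lowest (bottom) at E10 in HC1 cluster 8, for HC1 cluster 8, EC and HC1 cluster 7; lines join the 3 days of the G2VInt gate and the single point is E11.5 G2VLo. Sall4 was higher at E10 in all 3 groups of cells, whereas Perp was at 66.2 CPM at E10 in HC1 cluster 8 and under 1 CPM in EC throughout. In HC1 cluster 7 Perp was also highest at E10, at 28.3 CPM, and at 0.891 to 1.59 CPM later.

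Between the Venus gates at E11.5, G2VLo cells of HC1 cluster 8 had 1.34% of the 9849 measured genes at least 2-fold higher and 3.06% lower than G2VInt cells. Of the called genes 30.5% were higher, but 47.1% with TMM scaling, so the excess of lower genes depended on the scaling. Nr4a1, an immediate-early nuclear receptor, was at 477 CPM in G2VLo, against 74.4 in G2VInt, and Fos at 122.7 CPM, against 24.3. Hmox1, the heme oxygenase induced by stress, was at 41.3 CPM in G2VLo, against 7.04 in G2VInt, and Acta2 at 87.05 CPM, against 10.9. Hmox1 was read in 29 of 92 G2VLo cells and 11 of 39 G2VInt cells, and Acta2 in 23 and 10 of them. The shares of cells thus differed far less than the levels. In the G2VInt gate Acta2 was at 32.4 CPM at E10 and 81.9 CPM at E11, the latter near its G2VLo level. The 15 immediate-early genes summed to a median of 1676 CPM per cell in G2VLo, against 597 in G2VInt, and the G2 and M phase genes to 4993 CPM, against 10583. The median G2 and M phase sum was lower in G2VLo in HC1 cluster 7 too, while in EC it was nearly the same in both gates. Genes lower in G2VLo included Aplnr (3.65 CPM, against 28.3 in G2VInt), Tmsb10 (11.2, against 47.6) and Isl1 (2.80, against 14.9). Aplnr in the G2VInt gate was at 1.017 CPM at E10 and 0.775 CPM at E11, below its G2VLo level. On the same days Isl1 was at 3.43 and 21.3 CPM and Tmsb10 at 31.8 and 23.4 CPM, above their G2VLo levels. Depth was lower and the mitochondrial share higher in G2VLo, and their part in the differences between the gates was not tested. Of the genes called higher in G2VLo, 13 were also called higher in HC1 cluster 7 (9.85% of them, and 17.3% of 75 there). Of those called lower, 56 were called lower there too (18.6% of them, and 13.7% of the genes called there). Over all genes HC1 cluster 7 had 0.754% called higher and 4.10% called lower. In EC, with 0.185% and 1.96% of all genes called, 6 of the genes called higher and 22 of those called lower in HC1 cluster 8 were called the same way.

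The cells sorted as CD27+ at E11.5 carry no class, but 69 of them (57.98%) share with most of HC1 cluster 8 a cluster, also numbered 8, in the authors' clustering of every cell. These 69 had Flt3 at 60.9 CPM (58.6 to 63.3), against 63.9 CPM (61.6 to 66.3) in HC1 cluster 8 of the G2VLo gate, and Cd27 at 175.1 CPM (171.2 to 179.1), against 111.9 CPM (108.8 to 115.1). Cd27 was read in 67 of the 69 (97.1%) and Flt3 in 42 (60.9%), against 80.4% and 52.2% in HC1 cluster 8 of the G2VLo gate. CD27 protein was used for the sort, so the Cd27 level is not independent of it.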

How the data were processed

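Single-cell RNA was read in 1087 cells, each its own sample. The deposited values are raw counts of reads per Ensembl gene. The submitters' processing notes name HTSeq 0.6.0 and GRCm38, while aligner, annotation release and strand setting are not given in the sources used here. Per the labels' protocols, Nextera XT libraries were sequenced on Illumina machines, and no molecular identifiers are mentioned. Of 46078 genes, 45229 matched a GENCODE M21 symbol, and the other 849 held 0.0859% of the counts. Classes and clusters were taken from the labels: 198 cells of HC1 cluster 8, 335 EC cells (122 in E11.5 G2VInt and 184 in E11.5 G2VLo), 207 of HC1 cluster 7, 52 of HC2 cluster 10, 43 of HC2 cluster 9 and 119 cells sorted as CD27+. All cells held 117369 to 6999570 reads (median 818924), and no 2 columns were identical (0).

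Counts were summed per group of cells within a day and gate and expressed as CPM, with exact Poisson 95% intervals, and shares carry exact Clopper-Pearson intervals, both for counting error only. A count of 0 was set to 3 reads for ratios. Groups under 10 cells entered none of the main comparisons with EC, HC2 cluster 10 and HC1 cluster 7. The alternative runs with single EC clusters or with split library numbers did hold groups under 10 cells. List medians are over members with at least 10 CPM in 1 of both groups in each day and gate. Python 3.11.15 with numpy 2.4.6, pandas 2.3.3, scipy 1.17.1 and matplotlib 3.10.9 was used. TMM factors from edgeR 4.0.16 (R 4.3.3) were an alternative scaling, as were thinned reads, mean per-cell CPM, other limits on low levels, totals without mitochondrial genes, the lower and the upper library numbers apart, cells placed alike by both clusterings, single EC clusters and leaving out each day and gate. Only the 2-fold rule was tried on simulated data, Poisson counts drawn from the summed EC reads. The limits on level and share of cells, and variation among cells, were not part of that simulation.

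Genes were named by a rule: the 6 genes of the working name, Gata2, Kit and Pecam1, the 12, 10 and 8 called genes each way with the largest smallest ratio against EC, HC2 cluster 10 and HC1 cluster 7, and up to 4 genes per list with the largest ratio; the day and gate contrasts name 8 each way. A few genes that the rule names are not reported here. Others are said to be named after their values were seen or are list members whose values recur in another comparison. The members, lists and rules were chosen with earlier results of these data known. Promoter windows are RefSeq's on GRCm38.p6, cut to the 250 bases before each start.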

Additional observations from a re-analysis of the deposited data

Results flagged for a closer look

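The G2 and M phase genes against EC moved in opposite directions in the 2 Venus gates. Their median log2 ratio in HC1 cluster 8 over EC was −0.15 in the E11.5 G2VLo group, against 0.70 to 0.79 in the 3 G2VInt groups, a span of 0.94. With 1 sample per group this difference was not tested. In HC1 cluster 8 the median depth was 466202 reads in G2VLo, against 1446320 to 2498040 reads in G2VInt, and the part of depth and library block in the difference was not tested.

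A signal of the naming genes also appeared in cells outside the comparisons, the 69 CD27+ sorted cells in cluster 8 of the clustering of all cells. Flt3 was at 60.9 CPM, against 0.0821 CPM in EC cells of the E11.5 G2VLo group. Il12a was at 19.6 CPM, against 1.00 CPM in these EC cells, and Pglyrp1 at 21.5 CPM, against 0.246 CPM. Postn was at 24.1 CPM, against 0.558 CPM, and Cd274 at 9.11 CPM, against 0.197 CPM. These cells were placed beside HC1 cluster 8 by a clustering on expression, so higher levels of its genes than in EC follow from that choice.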

How the results depend on the processing

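A change of direction under the alternative runs was looked for only in the ranked genes. Shares of called genes have no direction, so they could only stay alike, grow or shrink. Some of the other values moved in some runs, and whether their sign changed was not checked. Shares here are of the genes measured. With no minimum level or share of cells, 6.89% were higher and 9.18% lower than EC (1275 and 1697 genes), 14.3% and 7.05% than HC2 cluster 10 (2626 and 1293), and 0.988% and 1.61% than HC1 cluster 7; more genes are then measured and called. With a minimum of 30 CPM, 7.57% were higher than HC2 cluster 10 and 0.406% (25 genes) than HC1 cluster 7, 0.376% were higher (25) and 0.841% lower (56) at E10, and 0.561% higher (38) and 1.70% lower in G2VLo; fewer genes are then measured. With cells placed alike by both clusterings, 0.659% were higher and 1.85% lower than HC1 cluster 7, and 2.22% were higher in G2VLo; the cause was not tested. Leaving out each day and gate in turn gave 6.97% to 7.77% higher and 9.45% to 10.19% lower than EC, 15.3% to 17.6% and 7.80% to 9.75% against HC2 cluster 10, 0.469% to 0.612% and 1.22% to 1.46% against HC1 cluster 7, and 0.831% to 0.977% higher and 1.83% to 2.50% lower at E10; fewer groups then have to pass. Without E10, 58 genes were higher than HC1 cluster 7, where 38 were with all groups. TMM scaling gave 484 higher and 985 lower than EC, of which 483 and 879 were the same genes. None of the ranked genes changed direction, but some lost their call: 24 pairs of a gene and a setting against EC, 13 against HC2 cluster 10 and 11 against HC1 cluster 7. With the EC cells of cluster 2 alone, Fmo1, Tbx3, Hoxd9, Adh6b, Prss23, Timp1 and Tll1 were not called. That EC cluster held only 4 cells at E10 and 8 at E11. Tagln lost its call in the lower and in the upper library numbers, and Il12a, Col26a1 and Ctsh against HC1 cluster 7 in the upper ones. No paired analysis was possible because the labels name no replicate, embryo or sort. Groups of 2 and 7 HC2 cluster 10 cells and a median depth of 466202 reads in G2VLo limit what could be read.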

Other observations

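Reln, which encodes the secreted glycoprotein reelin, had reads in 27 of 39 HC1 cluster 8 cells at E11.5 in G2VInt, in 1 of 92 in G2VLo, in 0 of 36 at E10 and in 0 of 31 at E11. Its level at E11.5 in G2VInt was 11.49 CPM in HC1 cluster 8, 11.4 CPM in EC and 13.4 CPM in HC1 cluster 7. The level was within 1 group of libraries and alike in 3 groups of cells, and the part of the library block was not tested.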
